A study of Mus musculus with 40 samples.

Results

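The genes described here are 10 proteoglycan genes of the heart matrix, taken by symbol from the expression tables of male and female mouse hearts. They are *Dcn* (decorin), *Bgn* (biglycan), *Aspn* (asporin), *Lum* (lumican), *Fmod* (fibromodulin), *Prelp*, *Omd* (osteomodulin), *Ogn* (osteoglycin), *Vcan* (versican) and *Hspg2* (perlecan). All 10 were listed in both tables, among 17646 genes in males and 17223 in females, and all 10 passed the filter on low values in each. The rule uses the gene symbol and no measured value.

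The study asked what IL11 made by cardiomyocytes does to the adult heart. CM-Il11-Tg mice were heterozygous for α-MHC-MerCreMer, a tamoxifen-activated Cre driven by a cardiomyocyte promoter, and for the *Rosa26-Il11* transgene, and tamoxifen was begun at 8 weeks of age. Control mice, labelled WT, were littermates that carried the same MerCreMer allele without *Rosa26-Il11* and also received tamoxifen, so that both genotypes shared the Cre and the controls shared the drug with the induced hearts. PolyA RNA was sequenced from 40 hearts, 1 library per mouse, and 38 entered the groups: control, CM-Il11-Tg without tamoxifen (uninduced), and CM-Il11-Tg 1, 3 and 6 weeks after tamoxifen, with 4 libraries per group and sex except for 3 in male controls and 3 in male 6-week hearts. The labels of 2 further male libraries contradict each other, and these were set apart. Controls carry the label baseline and no week, so time since tamoxifen and age at collection cannot be told apart from the induction itself in a comparison of a week with control. The labels give heart and the text of the study gives left ventricle.

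Small leucine-rich proteoglycans are secreted proteins with a core of leucine-rich repeats, most of which carry chondroitin, dermatan or keratan sulfate chains and bind collagen fibrils, where they set fibril width and spacing. Versican is a large chondroitin sulfate proteoglycan that binds hyaluronan in loose, provisional matrix, and perlecan is the large heparan sulfate proteoglycan of basement membranes, which in the heart surround cardiomyocytes and vessels. In the heart the small members are known mainly as products of fibroblasts and valve cells.

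Several members are neighbours in the genome. In GENCODE's annotation of GRCm39, *Dcn* (chr10:97315275-97358155) and *Lum* (chr10:97400990-97408577) lie on the plus strand 42.8 kb apart. *Prelp* (chr1:133837335-133857971, minus strand) and *Fmod* (chr1:133964992-133976015, plus strand) lie 107.0 kb apart. *Aspn* (chr13:49697609-49721057), *Omd* (chr13:49735938-49746298) and *Ogn* (chr13:49761349-49780412) follow each other on the plus strand with gaps of 14.9 and 15.0 kb. No protein-coding gene lies wholly within these gaps, but *Cenpp*, on the minus strand, covers all of *Aspn*, *Omd* and *Ogn*. *Bgn* is at chrX:72527208-72539541 on the plus strand, *Vcan* at chr13:89803431-89890814 on the minus strand and *Hspg2* at chr4:137196079-137298231 on the plus strand.

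RefSeq's promoter table (GRCm38.p6) held 8 of the 10 genes, all but *Dcn* and *Lum*, and each of these 8 sequences occurred once in GRCm39. The 250 bases before the start site are shown for 3 genes whose levels took different courses, *Bgn* among those that rose, *Omd* among those that fell and *Fmod* among the scarcest. The sequences read 5′ to 3′ on the gene's strand with GRCm39 positions, all plus strand, and capitals mark CG dinucleotides.
Bgn, chrX:72526957-72527206: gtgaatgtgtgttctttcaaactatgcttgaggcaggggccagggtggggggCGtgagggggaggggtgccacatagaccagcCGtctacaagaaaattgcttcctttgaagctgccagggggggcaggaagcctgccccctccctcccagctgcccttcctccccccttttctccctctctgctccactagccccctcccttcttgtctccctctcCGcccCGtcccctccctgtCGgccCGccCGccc
Omd, chr13:49735688-49735937: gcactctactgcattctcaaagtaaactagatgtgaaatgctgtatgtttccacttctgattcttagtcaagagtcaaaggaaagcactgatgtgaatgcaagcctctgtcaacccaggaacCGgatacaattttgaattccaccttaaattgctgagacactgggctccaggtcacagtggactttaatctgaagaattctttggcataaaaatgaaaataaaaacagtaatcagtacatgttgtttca
Fmod, chr1:133964742-133964991: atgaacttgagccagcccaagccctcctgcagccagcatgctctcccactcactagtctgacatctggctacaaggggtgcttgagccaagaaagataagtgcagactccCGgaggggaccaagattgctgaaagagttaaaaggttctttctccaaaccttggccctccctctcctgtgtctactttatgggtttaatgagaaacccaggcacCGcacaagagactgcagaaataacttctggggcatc

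The *Bgn* window held 7 CG dinucleotides at 64.4% GC, the *Fmod* window 2 at 51.2% GC and the *Omd* window 1 at 38.4% GC, and the median over all promoters of the table was 6. The richest window among the members was that of *Hspg2* with 20 at 70% GC, followed by *Vcan* with 10. A search of the 300-base windows on both strands for TTCNNNGAA, the letters of a STAT site, and for TGANTCA, the letters of an AP-1 site, found neither in any of the 8 windows, while 8.3% and 7.81% of the 32851 promoters of the table hold them. This says only that these letters are not in these windows.

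Values are CPM as deposited, a gene's reads relative to the library's total, scaled within each sex's table, so no value was tested between the sexes. The listed genes held 16663513 to 65333832 reads in a male library and 19147947 to 30929192 in a female one. *Il11* checked the labels of control, uninduced and induced hearts, but not the week labels, since its values overlapped between the weeks. It averaged 0.0867 ± 0.0769 CPM (SD, n = 3) in male controls, 19.6 ± 2.89 (n = 4) in uninduced hearts, and 462 ± 168, 421 ± 80.7 and 570.3 ± 219 at 1, 3 and 6 weeks. Female means were 0.0886 ± 0.0799, 26.8 ± 15.1, 484 ± 89, 494 ± 39.9 and 463 ± 110.2. Uninduced hearts thus held more *Il11* than control hearts in both sexes, with log2 differences of 5.09 ± 0.23 (SE) in males and 5.41 ± 0.24 in females. The summed level of 7 cardiomyocyte markers, 24578 to 54071 CPM across male libraries and 22800.4 to 46959.6 across female libraries, was far above that of any other cell type list.

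Each comparison used limma on log2(CPM + 0.5) with all libraries of a sex in 1 fit, and a gene was called at a Benjamini-Hochberg adjusted p below 0.05 over all genes tested. On this scale the fold change of a low gene is understated. Errors of log2 fold changes are standard errors.

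Of the 10 proteoglycan genes, *Dcn*, *Bgn*, *Lum*, *Prelp* and *Vcan* were higher than in control at every week in both sexes, by between 0.90 and 2.56 on the log2 scale. The members called lower were *Ogn*, *Omd* and *Hspg2*, none of them at every week in both sexes. The calls of *Ogn* and *Hspg2* were lost with plain scaling to the column total, as given below. Male counts were 5 higher and 2 lower at 1 week, beside 18.9% and 14.6% of all genes, 5 and 1 at 3 weeks, beside 13.2% and 8.1%, and 5 and 1 at 6 weeks, beside 16.2% and 10.9%. Female counts were 5 higher and 1 lower at 1 week, beside 15.3% and 13.1% of all genes, 5 and 2 at 3 weeks, beside 16.8% and 14.5%, and 7 and 3 at 6 weeks, beside 21.7% and 21.0%. The median log2 difference of the members at 6 weeks was 1.29 in males and 1.58 in females, and over all genes tested it was -0.01 and -0.02. In bulk hearts, more cells of a type and more RNA per cell cannot be told apart, nor can fewer cells and less RNA per cell.

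**Figure D1:**
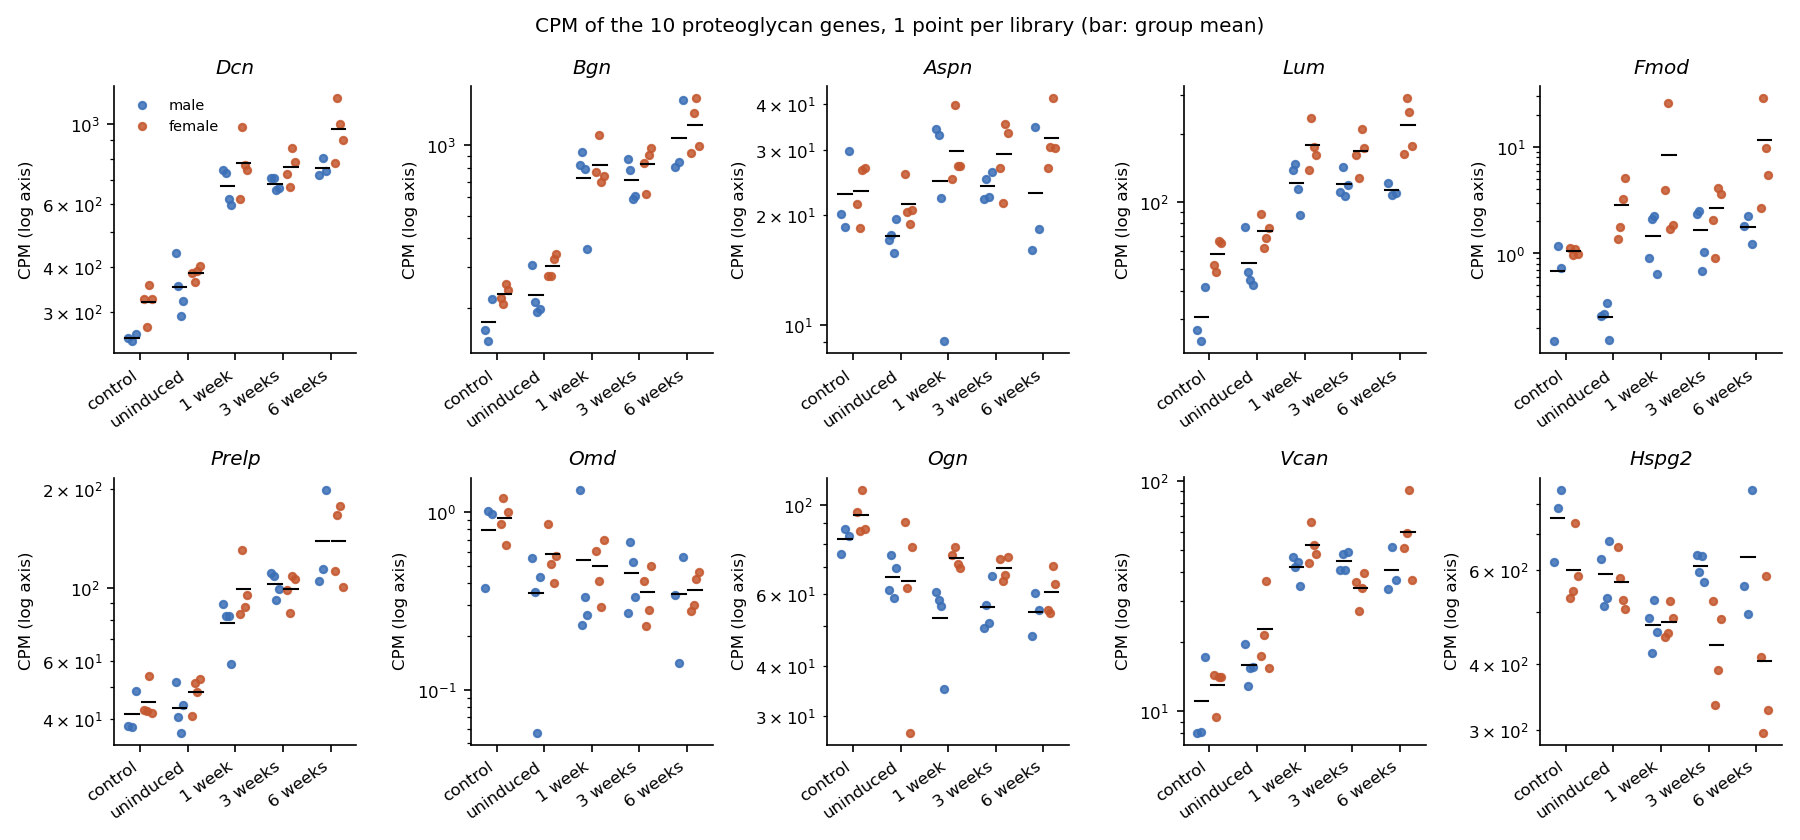
Each panel plots 1 gene, with CPM on a log axis against group, 1 point per library (blue male, orange female) and a bar at the group mean. The points of *Dcn*, *Bgn*, *Lum*, *Prelp* and *Vcan* at 1, 3 and 6 weeks lie above those of the same sex's controls, and those of *Ogn* lie below them.

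Decorin and biglycan are the class I members, which carry chondroitin or dermatan sulfate chains and bind collagen and TGFβ. *Dcn* read 254, 249 and 261 CPM in the male controls. It stood at 745, 731, 617 and 594 at 1 week, at 707, 706, 657 and 662 at 3 weeks and at 721, 805 and 741 at 6 weeks. Every induced male library was thus above every control, with 594 as the lowest induced and 261 as the highest control value, and the weeks overlapped one another except that the 6-week libraries lay just above those of 3 weeks. The log2 differences from control were 1.39 ± 0.13, 1.42 ± 0.13 and 1.57 ± 0.14 (limma adjusted p = 1.12e-07, 7.9e-08 and 5.04e-08). Female controls held 325, 273, 356 and 325 CPM of *Dcn*. The 1-week hearts held 618, 978, 771 and 743, the 3-week hearts 726, 667, 856 and 785 and the 6-week hearts 780.4, 1180.3, 1002 and 904. These groups did not overlap with control either, and the log2 differences were 1.27 ± 0.13, 1.25 ± 0.13 and 1.59 ± 0.13 (limma adjusted p = 4.18e-07, 4.15e-07 and 9.82e-09).

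*Bgn*, which can also signal through Toll-like receptors when it is soluble, showed the greatest mean difference of the 10 genes at 6 weeks in males. Its male controls held 162, 145 and 219 CPM, and the 1-week hearts 820, 939.6, 790.4 and 360.2. The last of these, replicate 4, held the most *Il11* of the 1-week males (712 CPM) and the least *Bgn*. *Bgn* stood at 870.4, 783, 590.3 and 604 at 3 weeks and at 805, 845 and 1569 at 6 weeks, and no induced library overlapped with control. The log2 differences were 1.98 ± 0.28, 2.02 ± 0.28 and 2.56 ± 0.30 (limma adjusted p = 3.03e-05, 2.8e-05 and 3.22e-06). Without replicate 4 of the 6-week males, which holds the 1569, the difference at 6 weeks was 2.25 ± 0.31 (adjusted p = 3.1e-05). Female controls held 221, 208, 254 and 240.2 CPM, against 769, 1110, 695 and 737 at 1 week, 838, 617, 907 and 975 at 3 weeks and 924, 1380.4, 1594 and 993 at 6 weeks. The groups again did not overlap with control, with log2 differences of 1.82 ± 0.18, 1.83 ± 0.18 and 2.37 ± 0.18 (limma adjusted p = 1.07e-07, 7.28e-08 and 1.35e-09).

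Asporin is the class I member with a stretch of aspartate residues in place of a usual glycosaminoglycan site. In males it did not rise with the other class I genes, and in females its difference at 6 weeks was smaller than theirs. *Aspn* ranged from 18.5 to 29.9 CPM in male controls, and at 1 week from 9.06 to 34.3, a range that took in every control. The male log2 differences were -0.02 ± 0.32, 0.09 ± 0.32 and -0.04 ± 0.35 at the 3 weeks, none called, and the sign at 1 and 6 weeks changed with the scaling or tool. In females *Aspn* stood at 18.4 to 26.8 in controls and at 26.8, 30.7, 41.6 and 30.4 at 6 weeks, where it was called (0.46 ± 0.17, limma adjusted p = 0.0377), although the lowest 6-week library equalled the highest control to 3 digits. The call was lost when any of the 4 replicate numbers was left out. *Aspn* shares 267 exon bases with *Cenpp* on the other strand. The library kit keeps strand, but whether the counting used it is not given in the sources used here. *Cenpp* reached at most 1.61 CPM in any grouped library.

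Lumican, fibromodulin, PRELP and osteomodulin are the class II members, several of which carry keratan sulfate or sulfated tyrosines, and of which lumican and fibromodulin share a binding region on collagen. *Lum* held 26.7, 23.9 and 41.5 CPM in male controls and 139, 147, 114 and 86.9 at 1 week. At 3 weeks it stood at 111, 143, 106 and 119 and at 6 weeks at 121, 107 and 109, so that every induced library was above every control. The log2 differences were 1.98 ± 0.21, 1.98 ± 0.21 and 1.89 ± 0.22 (limma adjusted p = 7.78e-07, 7.69e-07 and 2.92e-06). Female *Lum* went from 52.4, 48.6, 66.5 and 65.2 in controls to 139, 237, 176 and 161 at 1 week, 162, 127, 210.5 and 174 at 3 weeks and 163, 289.7, 251 and 177 at 6 weeks. None of these libraries overlapped with control, with log2 differences of 1.59 ± 0.19, 1.52 ± 0.19 and 1.88 ± 0.19 (limma adjusted p = 2.01e-06, 3.17e-06 and 1.27e-07).

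*Prelp*, whose product ties basement membranes to collagen, moved less at 1 week than *Lum*. In males it stood at 38.2, 37.9 and 48.7 CPM in controls, at 89.6, 82.3, 82.4 and 58.8 at 1 week, at 111, 109, 92.2 and 99.6 at 3 weeks and at 105, 114 and 199 at 6 weeks. The induced groups lay above control at each week, by 0.90 ± 0.19, 1.30 ± 0.19 and 1.68 ± 0.20 (limma adjusted p = 0.00109, 3.34e-05 and 3.11e-06). The 3-week and the 6-week males also lay wholly above the 1-week males, but these differences, 0.41 ± 0.17 and 0.79 ± 0.19, were not called (adjusted p = 0.263 and 0.109). Female *Prelp* stood at 42.6, 42.3, 54 and 41.7 in controls and at 113, 167, 177 and 101 at 6 weeks, and the log2 differences at the 3 weeks were 1.11 ± 0.17, 1.13 ± 0.17 and 1.58 ± 0.17 (limma adjusted p = 3.4e-05, 2.28e-05 and 2.15e-07). *Prelp* shares 350 exon bases with the noncoding gene *Gm15851* on the other strand.

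*Fmod* was scarce in all male groups, between 0.15 and 2.52 CPM, and its differences from control of 0.74 ± 0.36, 0.85 ± 0.36 and 1.02 ± 0.39 were not called in males (limma adjusted p = 0.125, 0.103 and 0.0571). All 3 male 6-week libraries, at 1.82, 2.26 and 1.24, lay above the controls at 0.15, 1.17 and 0.733, and without replicate 4 of the 6-week males the difference was called (1.20 ± 0.43, adjusted p = 0.0496). Against uninduced hearts, which held only 0.152 to 0.344, male *Fmod* was called at each week (log2 differences 1.29 ± 0.33, 1.40 ± 0.33 and 1.57 ± 0.36, adjusted p = 0.0102, 0.00622 and 0.00411). Female controls were tight at 1.12, 0.968, 1.1 and 0.998, and the 1-week hearts held 3.91, 26, 1.71 and 1.86, the 3-week hearts 2.08, 0.912, 4.15 and 3.59 and the 6-week hearts 2.66, 28.9, 9.76 and 5.46. A single library thus stood far above the rest of its group at 1 week and at 6 weeks, replicate 2 in each. The difference was called at 6 weeks (2.49 ± 0.66, limma adjusted p = 0.00503) and not at 1 or 3 weeks (1.69 ± 0.66 and 0.90 ± 0.66, adjusted p = 0.0621 and 0.326). On the recovered reads the 1-week difference was called, at 3.0 with edgeR (adjusted p = 0.0134) and 3.02 with DESeq2 (adjusted p = 0.00182).

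The same 2 female libraries stood far above all others in *Myl7* and *Myl4*, myosin light chain genes of atrial muscle. *Myl7* stood at 52.3 CPM in replicate 2 of the 1-week females and at 346 in replicate 2 of the 6-week females, and at no more than 0.529 in the other 18 female libraries. *Myl4* stood at 67 and 383 in these 2 libraries and between 0.962 and 3.01 in the others. *Comp*, a cartilage and tendon matrix gene, was also at the top of its group in both, at 196 and 462. *Sln*, the third atrial marker of the list, was listed in neither table and *Myl7* was not listed for males, whose *Myl4* reached at most 2.58. Without both libraries *Fmod* remained called at 6 weeks (1.90 ± 0.43, adjusted p = 0.00195) and was at 0.88 ± 0.43 at 1 week (adjusted p = 0.153). The 1-week library also held the highest *Dcn*, *Lum*, *Bgn*, *Prelp*, *Aspn* and *Vcan* of its group. The differences of *Dcn*, *Lum*, *Bgn*, *Prelp* and *Vcan* from control stayed called at every week without the 2 libraries, while *Ogn* at 6 weeks and *Omd* at 1 week lost the call (adjusted p = 0.0804 and 0.0827).

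**Figure D2:**
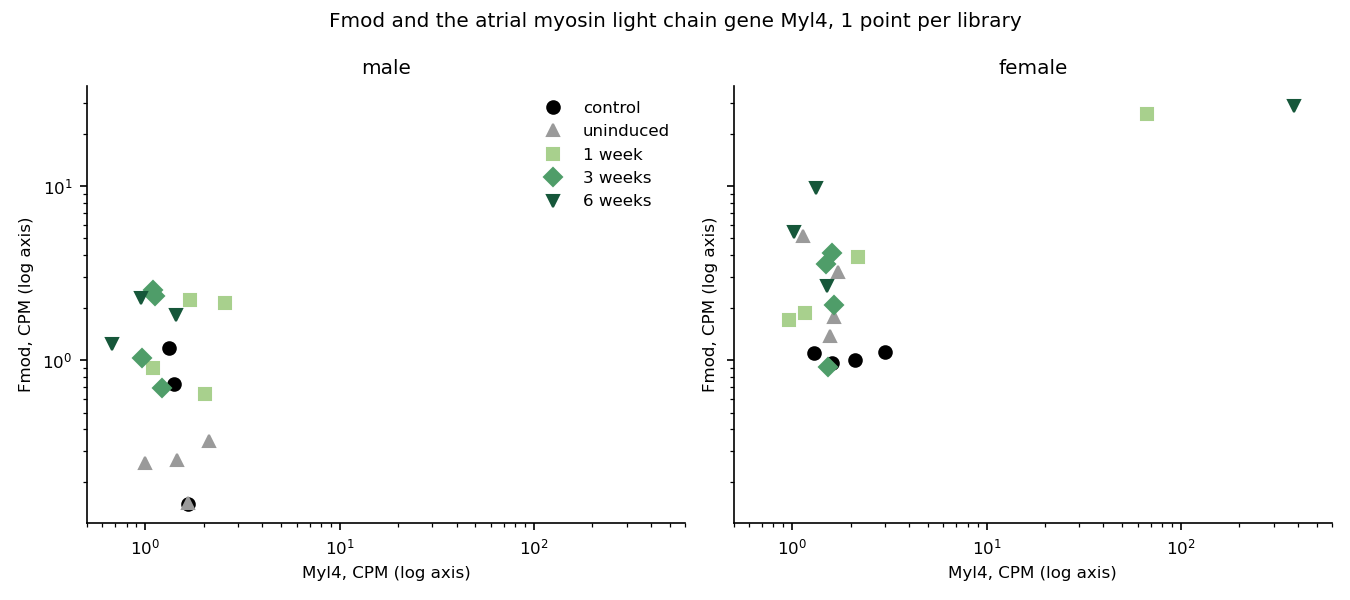
*Fmod* is plotted against *Myl4*, both in CPM on log axes, with 1 point per library and a symbol per group, males on the left and females on the right. The 2 female libraries at the upper right, at 67 and 383 CPM of *Myl4*, hold 26 and 28.9 CPM of *Fmod*, while the other female libraries stay at or below 9.76.

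*Omd* was the scarcest of the 10 along with *Fmod*, at 0.0574 to 1.34 CPM in males and 0.228 to 1.21 in females. Female controls held 0.861, 1.21, 0.65 and 0.998, and the 6-week hearts 0.277, 0.301, 0.421 and 0.462. The 3-week and 6-week female groups lay wholly below control. The log2 differences were -0.52 ± 0.17, -0.74 ± 0.17 and -0.72 ± 0.17 (limma adjusted p = 0.0294, 0.00269 and 0.00256), and the call at 1 week was lost with edgeR and DESeq2 on the recovered reads. In males the differences, -0.38 ± 0.31, -0.42 ± 0.31 and -0.60 ± 0.33, were not called.

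Osteoglycin, the class III member, binds collagen and BMP ligands and stood lower than control in every induced library of both sexes. In males *Ogn* stood at 75.6, 87.2 and 83.5 CPM in controls, at 60.8, 58, 56.1 and 35 at 1 week, at 49.4, 56.6, 51 and 66.7 at 3 weeks and at 47.3, 60.6 and 54.8 at 6 weeks. All induced males lay below all male controls, by -0.67 ± 0.16, -0.56 ± 0.16 and -0.60 ± 0.17 on the log2 scale (limma adjusted p = 0.00337, 0.0168 and 0.0138). In females *Ogn* stood at 96, 86.3, 109 and 87.1 in controls, at 75.1, 78.6, 71.3 and 69.7 at 1 week, at 73.3, 64.6, 67.1 and 74.3 at 3 weeks and at 54.9, 54.1, 70.4 and 63.7 at 6 weeks. Here too no induced library reached a control, but only 6 weeks was called (-0.64 ± 0.23, limma adjusted p = 0.0292, against 0.262 and 0.159 at 1 and 3 weeks). The spread of the fit included an uninduced female, replicate 3, with 27.3 CPM, and without that library the differences at 1 and 3 weeks, -0.35 and -0.43, were called too (adjusted p = 0.0193 and 0.00475). *Ogn* shares 1155 exon bases with *Cenpp* on the other strand.

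The calls of *Ogn* and *Hspg2* as lower than control were lost under plain scaling to the column total. They were kept under median-of-ratios scaling, which scales a library by the median ratio of its genes to their mean over libraries. The deposited values include a scaling factor for each library, and with plain scaling to the column total in its place the median of all genes rose against control by 0.33, 0.234 and 0.162 (log2) at 1, 3 and 6 weeks in males and by 0.281, 0.295 and 0.335 in females. Male *Ogn* was then at -0.32, -0.29 and -0.41, below that median but not called (adjusted p = 0.0961, 0.158 and 0.0676), and female *Ogn* at -0.01, -0.08 and -0.24. Under plain scaling the members split into 6 higher and 0 lower at each week in males, and into 7 and 0, 6 and 1, and 7 and 1 in females at 1, 3 and 6 weeks. *Omd* in females at 3 and 6 weeks was the fall that stayed called, at -0.54 and -0.49 (adjusted p = 0.0194 and 0.0243). Over all genes plain scaling gave 6410 higher and 646 lower at 1 week in males in place of 3196 and 2475, 3876 and 395 at 3 weeks in place of 2238 and 1372, and 3606 and 595 at 6 weeks in place of 2742 and 1838. In females it gave 7001 and 583 in place of 2586 and 2227, 7108 and 602 in place of 2848 and 2457, and 8356 and 1045 in place of 3678 and 3567.

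Of the large proteoglycans, *Vcan* rose and *Hspg2* did not. Male controls held 8.06, 8.1 and 17.1 CPM of *Vcan*, against 46.5, 42.2, 44.3 and 35 at 1 week, 40.8, 48, 40.8 and 49.2 at 3 weeks and 33.7, 51.5 and 37.1 at 6 weeks. The lowest induced library held more than any control or uninduced male. The log2 differences from control were 1.95 ± 0.21, 2.05 ± 0.21 and 1.90 ± 0.22 (limma adjusted p = 9.19e-07, 4.98e-07 and 2.91e-06). Female *Vcan* stood at 14.3, 9.44, 14 and 14 in controls, at 43.9, 66.2, 52.6 and 48.2 at 1 week, at 36.2, 27.2, 34.1 and 39.7 at 3 weeks and at 50.9, 59.4, 91.4 and 37.1 at 6 weeks. Its log2 differences of 1.99 ± 0.25, 1.38 ± 0.25 and 2.11 ± 0.25 were called (limma adjusted p = 3.06e-06, 0.000204 and 9.06e-07). All 4 female 3-week libraries lay below all 4 of 1 week, but that difference of -0.61 ± 0.25 was not called (adjusted p = 0.446).

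*Hspg2* held 621, 784 and 849 CPM in male controls, 488, 419, 527 and 459.8 at 1 week, 639, 596, 638 and 569.6 at 3 weeks and 559, 497 and 849.7 at 6 weeks. Among the males only the 1-week hearts lay wholly below control, and only they were called (-0.66 ± 0.16, limma adjusted p = 0.00423). At 6 weeks the male difference was -0.27 ± 0.17 (adjusted p = 0.27), and without replicate 4, which holds the 849.7, it was -0.50 and called (adjusted p = 0.02). Female *Hspg2* stood at 531, 549, 734 and 585 in controls, at 449, 456, 525 and 487 at 1 week, at 524, 335, 389.6 and 486 at 3 weeks and at 412, 297, 584 and 328 at 6 weeks. The female differences were -0.31 ± 0.17, -0.48 ± 0.17 and -0.60 ± 0.17 (limma adjusted p = 0.193, 0.042 and 0.00902). The 1-week and 3-week females lay wholly below control, with highest values of 525 and 524 beside a lowest control of 531. At 6 weeks 1 library, replicate 3, was inside the control range. Under plain scaling no *Hspg2* difference was called in either sex, with -0.30 in males at 1 week (adjusted p = 0.147) and -0.12 and -0.20 in females at 3 and 6 weeks, and 0.03 in females at 1 week.

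**Figure D3:**
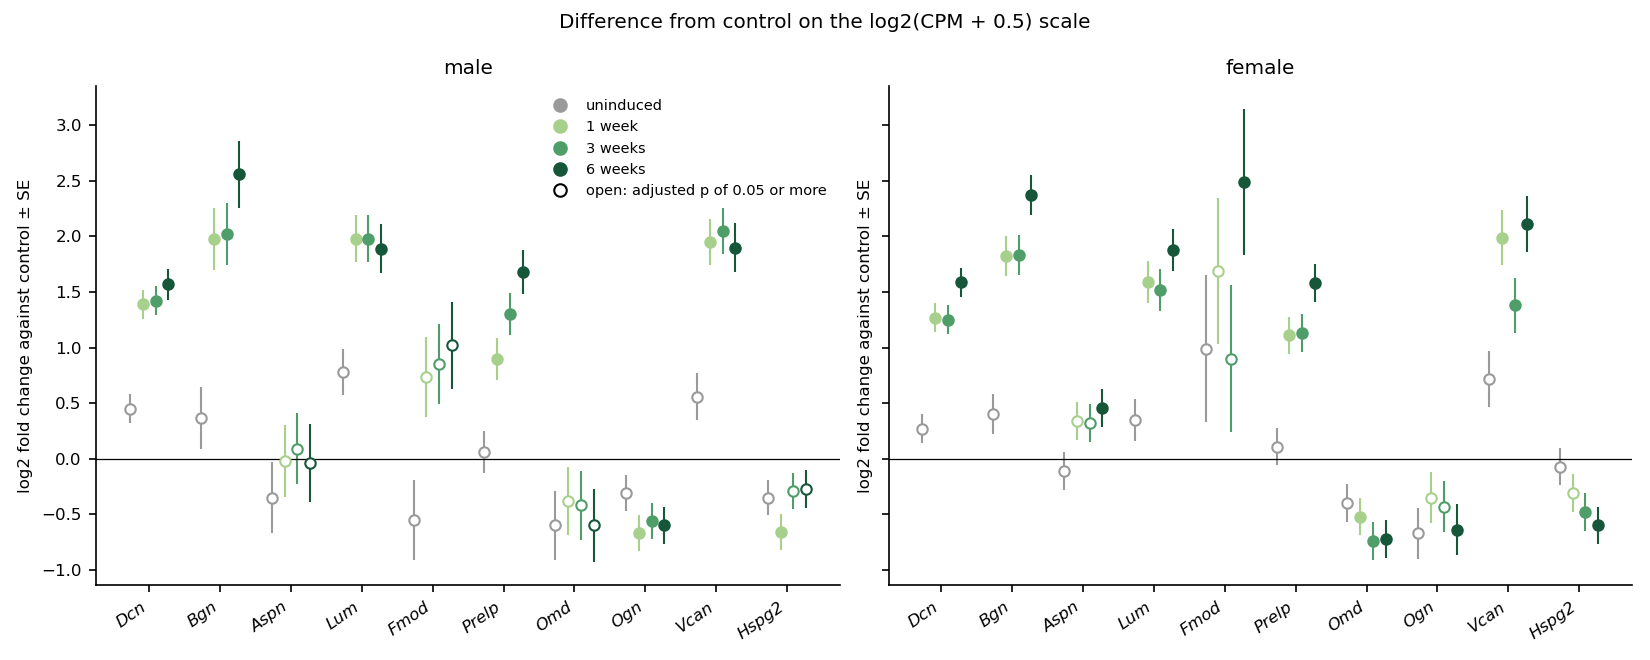
For each gene the log2 fold change against control is plotted with its standard error for the uninduced, 1-week, 3-week and 6-week groups, males on the left and females on the right, filled where the adjusted p was below 0.05. Filled points of *Dcn*, *Bgn*, *Lum*, *Prelp* and *Vcan* lie between 0.90 and 2.56 at all weeks, and no uninduced point is filled.

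Uninduced hearts stood between control and induced hearts for several members, but none was called against control in either sex. In males 0.597% and in females 2.87% of all genes were called there. At an unadjusted p below 0.05, 4 members passed in each sex, beside 1789 of 16931 genes in males and 2605 of 16956 in females. Among the members edgeR called 0 in each sex, while DESeq2 called *Dcn* and *Lum* in males and *Vcan* in females. Male *Dcn* was at 439, 354, 293 and 322 CPM, wholly above control (0.45 ± 0.13, limma adjusted p = 0.145), and male *Lum* at 77.1, 48.5, 44.7 and 42.7, also wholly above (0.78 ± 0.21, adjusted p = 0.121). Female *Dcn* at 386, 363, 389 and 402, *Bgn* at 276, 275, 327 and 344, and *Vcan* at 17.4, 21.3, 36.6 and 15.4 lay above their controls as well, with differences of 0.27 ± 0.13, 0.40 ± 0.18 and 0.72 ± 0.25 (adjusted p = 0.339, 0.272 and 0.138). Female *Fmod* at 1.38, 1.76, 3.22 and 5.18 was also wholly above control (0.99 ± 0.66, adjusted p = 0.512). Male *Ogn* in the uninduced group, 58.9 to 75.1, lay below its controls (-0.31 ± 0.16, adjusted p = 0.51). A miss of the threshold does not show that these groups were alike.

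Against the uninduced group, which shares genotype but not tamoxifen with the induced hearts, males had 6 members higher and 0 lower at 1, 3 and 6 weeks, beside 18.8%, 16.1% and 20.4% of all genes called in either direction. Females had 5, 4 and 6 higher and 0, 0 and 1 lower, beside 12.6%, 16.7% and 22.8%. *Dcn*, *Bgn*, *Lum* and *Prelp* were among the higher ones each time, and *Vcan* was too except in females at 3 weeks (0.66 ± 0.25, adjusted p = 0.0726). Neither *Ogn* nor *Omd* was called lower against uninduced hearts at any week, and *Hspg2* was called in females at 6 weeks only (-0.53 ± 0.17, adjusted p = 0.0325). These comparisons use the same induced libraries as those with control.

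Between weeks, none of the 10 genes was called in either sex. The share of all genes called was 0.0177% for 3 against 1 week, 0.165% for 6 against 1 week and 0.0% for 6 against 3 weeks in males, and 0.218%, 1.03% and 0.0% in females. At an unadjusted p below 0.05, 2, 2 and 0 members passed in males and 1, 3 and 5 in females. Over all genes, 2710, 2615 and 1072 of 16931 passed in males and 1699, 2137 and 2572 of 16956 in females. Among the members edgeR called 0 in each of these comparisons, and DESeq2 called 1, *Prelp*, in males at 6 against 1 week. *Bgn* was higher at 6 than at 1 week by 0.58 ± 0.28 in males and 0.55 ± 0.18 in females (adjusted p = 0.332 and 0.167), and *Dcn* by 0.18 ± 0.13 and 0.32 ± 0.13 (adjusted p = 0.511 and 0.335).

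To compare levels between genes, CPM was divided by the length of each gene's canonical transcript. On this per-kilobase scale the 10 genes summed to 215 ± 31 in male controls and 713 ± 198 at 6 weeks, and to 253 ± 27.1 and 847 ± 194 in females (SD, n = 3, 3, 4 and 4). *Bgn* held the largest share of the sum in each group, and its share went from 33.5 ± 3.07% to 60.9 ± 6.95% in males and from 37.7 ± 0.842% to 59.3 ± 2.34% in females. *Hspg2* went from 24.1 ± 2.65% to 6.14 ± 0.537% in males and from 16.3 ± 1.14% to 3.37 ± 0.965% in females, and *Ogn* from 7.46 ± 1.01% to 1.53 ± 0.388% and from 7.24 ± 0.514% to 1.43 ± 0.305%. The lowest control share of *Hspg2* was thus above its highest 6-week share in each sex (22% against 6.62%, and 15.1% against 4.33%). *Dcn* kept 19.6 ± 2.28% and 18.2 ± 4.61% of the sum in males and 20.7 ± 0.916% and 19 ± 2.29% in females. Shares are bound to each other, so a gene can lose share while its own level stays. With coding length as the divisor *Dcn* rather than *Bgn* led in controls, at 37.9 ± 3.1% against 24.7 ± 2.88% in males and 38.5 ± 1.14% against 26.7 ± 0.74% in females. It also led in uninduced hearts of both sexes. At 1 and 3 weeks the 2 genes were close, with *Dcn* slightly ahead in males and *Bgn* in females. *Bgn* led at 6 weeks, at 46.1 ± 8.27% against 35.7 ± 7.2% in males and 43.9 ± 3.11% against 36.8 ± 3.41% in females.

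**Figure D4:**
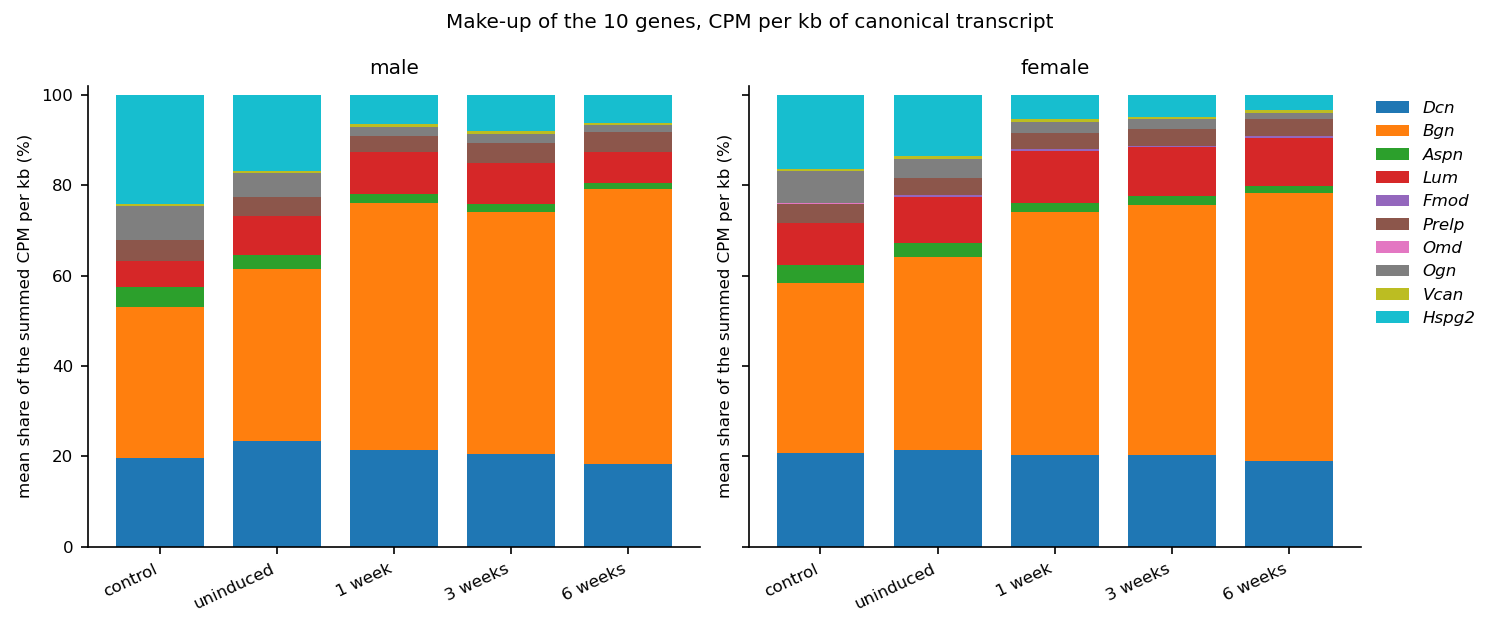
Stacked bars give each gene's mean share, in percent, of the summed CPM per kb of canonical transcript in each group, males on the left and females on the right. The *Bgn* segment is 33.5% in male controls and 60.9% at 6 weeks, and 37.7% and 59.3% in females, while the *Hspg2* segment shrinks from 24.1% to 6.14% and from 16.3% to 3.37%.

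Across libraries the members that rose followed each other, which the group differences by themselves bring about. *Dcn* and *Lum*, the neighbours on chromosome 10, correlated at r = 0.96 over 18 male and 0.99 over 20 female libraries on the log2 scale, and after removal of the group means at 0.75 and 0.91. *Bgn* and *Prelp*, on different chromosomes, correlated at 0.96 and 0.98, and within groups at 0.90 and 0.88. On chromosome 13 *Aspn* and *Ogn*, which have *Omd* between them, correlated within groups at 0.82 in males and 0.41 in females. The adjacent pairs there were lower, *Aspn* and *Omd* at 0.22 and 0.11 and *Omd* and *Ogn* at 0.32 and 0.39. *Prelp* and *Fmod*, the neighbours on chromosome 1, were at 0.12 and 0.76, so neighbours did not share 1 pattern. These are descriptions over libraries that share scaling and tissue sampling.

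Over 16627 genes tested in both tables, the genes with the highest lower value of the male and female r were found for each member. They were *Scara3* for *Dcn* (r = 0.985 in males and 0.978 in females), *Ctsk* for *Lum* (0.968 and 0.982), *Fbln1* for *Bgn* (0.971 and 0.972), *Egfr* for *Vcan* (0.968 and 0.966) and *Man2b2* for *Prelp* (0.977 and 0.965). Among members that fell or did not move, the closest were *Arid1a* for *Hspg2* (0.938 and 0.908), *Agtr1a* for *Ogn* (0.853 and 0.93), *Plxdc2* for *Aspn* (0.814 and 0.817) and *Ccdc15* for *Omd* (0.637 and 0.666). *Fmod* was closest to *Col12a1*, a fibril-associated collagen gene (0.831 and 0.824). For the members other than *Bgn* and *Prelp*, the next in order were *Dpt* for *Dcn*, *Frzb* for *Lum*, *Mmp19* for *Vcan*, *Notch1* for *Hspg2*, *Mrpl39* for *Ogn*, *Pde5a* for *Aspn*, *Bmp4* for *Omd* and *Tpm3-rs7* for *Fmod*.

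Marker genes of other cell types moved along with these changes, and their part in them was not tested. A sum is weighted to the most abundant genes of its list. The sum of 7 fibroblast markers was 205 to 273 CPM in male controls and 637 to 761 at 6 weeks, and 229 to 251 and 739 to 946 in females. At 6 weeks 3 of the 7 were called higher and 1 lower in males, beside 16.2% and 10.9% of all genes. In females 4 were higher and 1 lower, beside 21.7% and 21.0%, and the median log2 differences were 0.46 in males and 0.85 in females. Within that list *Pi16* rose by 3.01 ± 0.22 in males and 3.11 ± 0.16 in females and *Clec3b* by 1.98 ± 0.14 and 1.83 ± 0.10, while *Abca8a* fell by 1.79 and 1.90, so the fibroblast markers did not share 1 course. Macrophage markers (5 genes) summed to 153 to 256 in male controls and 667 to 915 at 6 weeks, and to 138 to 184 and 799.9 to 916 in females. Endothelial markers (6 genes) summed to 920.4 to 1041 in male controls and 592 to 734 at 6 weeks, and to 833 to 953 and 542 to 746 in females, and smooth muscle and pericyte markers (6 genes) to 858 to 1041 and 487 to 548, and 826 to 1005 and 572 to 753. Cardiomyocyte markers summed to 43851 to 54071 in male controls and 24578 to 36848 at 6 weeks, and to 27444 to 46959.6 and 25631 to 34422 in females. Beside the same shares of all genes, all 5 macrophage markers were called higher at 6 weeks in each sex. Called lower were 3 of 6 endothelial, 2 of 6 smooth muscle and pericyte and 1 of 7 cardiomyocyte markers in males. In females 4, 2 and 4 of these were lower, and 0 were higher in either sex. The sums of activated fibroblast markers (5 genes, of which *Acta2* is also in the smooth muscle list) overlapped between control and 6 weeks in both sexes. They were at 123 to 314 and 229 to 300.4 in males and 140.2 to 310.4 and 307 to 479 in females. Of these 5 genes, though, 2 were called higher and 1 lower in males, beside 16.2% and 10.9% of all genes. In females 3 were higher and 0 lower, beside 21.7% and 21.0%, and the median log2 differences were 0.54 in males and 1.13 in females. Mesothelial markers (5 genes) stood at 5.71 to 11 in female controls and 15.4 to 84.3 at 6 weeks, and at 6.78 to 8.14 and 6.48 to 29.1 in males. Of these 5 genes 4 were called higher at 6 weeks in females, beside 21.7% of all genes, and 0 in males. Cartilage and tendon markers, of which *Tnmd* was not listed, summed to 6.44 to 9.2 and 89.7 to 165 in males and 6.73 to 8.21 and 169.6 to 492 in females, and *Comp* made up most of the 6-week sums (81.5 to 155 and 159.8 to 462) but not of those in controls. Adipose markers, of which *Adipoq* and *Plin1* were not listed, summed to 0.35 to 1.21 in female controls, 3.36 to 4.94 in uninduced females and 2.34 to 20.8 at 1 week. There both listed genes were called higher, beside 15.3% of all genes. Female sums were 1.02 to 2.32 at 6 weeks, and male sums ranged from 0.189 to 5.9, with 0 genes called against control.

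The enzymes that build the sugar chains of these proteins, the other proteoglycans and the partners of the members were counted at 6 weeks, where 16.2% of all genes were called higher and 10.9% lower in males and 21.7% and 21.0% in females. The counts of the linker and precursor enzymes in males, 1 of 11 each way, lie below these shares. Of 15 chondroitin and dermatan sulfate enzymes, which make the chains of decorin, biglycan and versican, 7 were higher and 0 lower in males and 11 and 0 in females. *Dse*, the epimerase that turns chondroitin into dermatan sulfate, went from 4.89 ± 1.36 to 14.7 ± 3.88 CPM in males (1.50 ± 0.18) and from 4.36 ± 0.233 to 19.6 ± 4 in females (2.03 ± 0.14). *Chpf*, a chain polymerising factor, rose by 1.05 ± 0.19 and 1.20 ± 0.18, and the sulfotransferase *Chst12* by 1.35 ± 0.22 and 1.04 ± 0.21. Of 16 heparan sulfate enzymes, 7 were higher and 0 lower in males and 8 and 1 in females, the latter being *Hs3st3a1* (-0.61). Those that rose most in both sexes were *Hpse*, the heparanase that cuts the chains of perlecan (2.60 ± 0.19 and 2.43 ± 0.19), and *Sulf1*, which removes sulfate groups from them (2.29 ± 0.20 and 2.61 ± 0.20).

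Keratan sulfate enzymes were called for 2 of 4 in males and 3 of 5 in females as higher, with *B4galt1* at 1.20 ± 0.13 and 1.08 ± 0.14 and *Chst2* at 0.59 ± 0.19 and 1.04 ± 0.19, and *B4galt4* was lower in females (-0.47). Of the linker and precursor enzymes 1 of 11 was higher and 1 lower (*Fam20b*, -0.55) in males and 4 and 0 in females. *Ugdh*, which makes the glucuronic acid donor, was higher in both, by 0.89 ± 0.17 and 1.32 ± 0.12. In the hyaluronan system 4 of 11 genes in males and 6 of 12 in females were higher and 0 lower. *Has1*, a hyaluronan synthase, went from 0.155 to 5.14 CPM in males and from 0.132 to 4.68 in females, and *Tnfaip6*, which modifies hyaluronan, rose by 2.36 ± 0.30 and 3.35 ± 0.29.

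**Figure D5:**
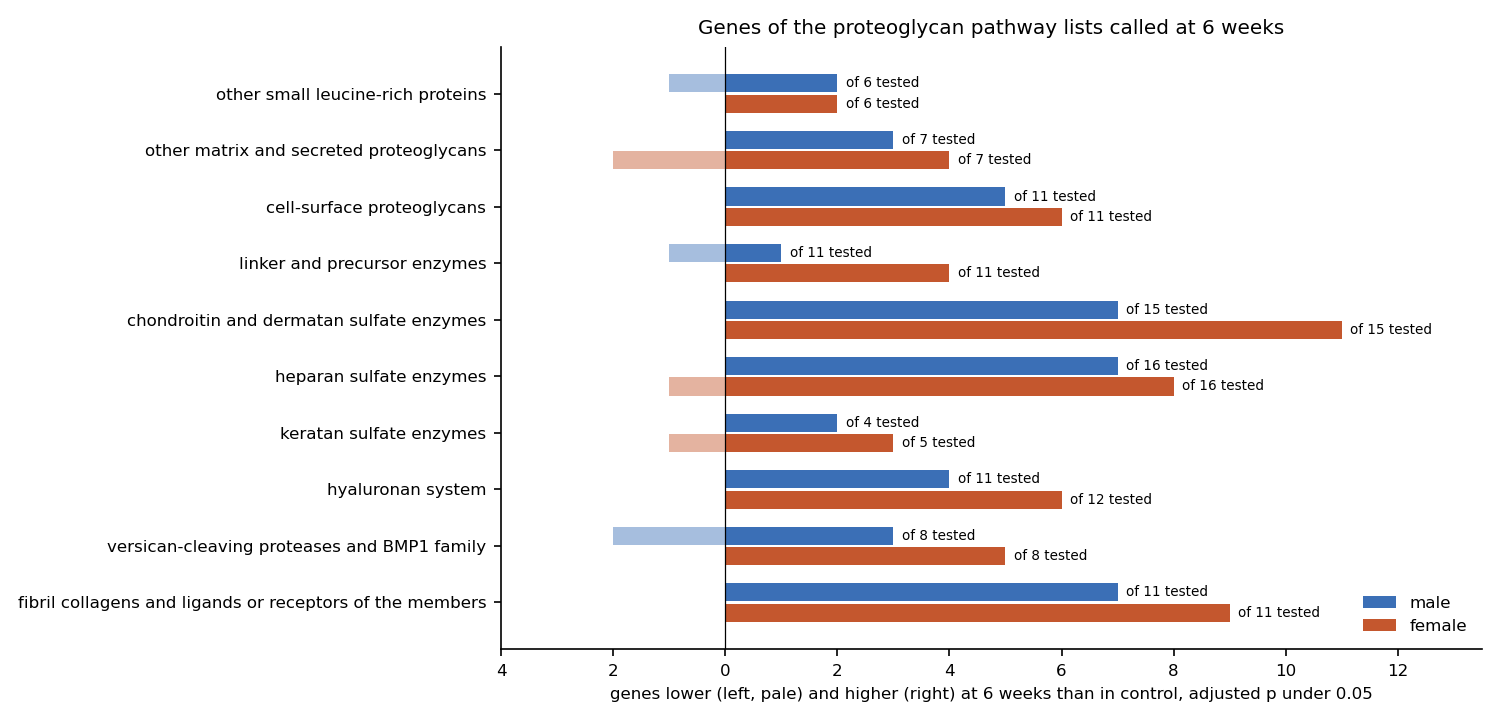
Bars count the genes of each list called at 6 weeks against control, higher to the right and lower to the left in pale colour, blue for males and orange for females, with the number tested beside them. The list of chondroitin and dermatan sulfate enzymes has 7 higher of 15 in males and 11 of 15 in females, and 0 lower.

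Among the other proteoglycans, *Prg4* (lubricin) changed most, from 14.7 ± 3.87 to 439.5 ± 75.6 CPM in males (4.88 ± 0.39) and from 11.9 ± 1.86 to 514 ± 249 in females (5.25 ± 0.47). Of 7 other matrix and secreted proteoglycans, 3 were higher and 0 lower in males and 4 and 2 in females, the lower ones being *Agrn* (agrin, a basement membrane proteoglycan, -0.93) and *Spock2* (-1.15). *Agrn* was thus called lower in females beside *Hspg2*, whose call was lost under plain scaling, and neither was called in males at 6 weeks. Of 6 other small leucine-rich genes 2 were higher in each sex, *Tsku* (2.21 ± 0.32 and 2.26 ± 0.23) and *Podn* (1.89 ± 0.20 and 1.35 ± 0.12), and *Ecm2* was lower in males (-0.82, limma adjusted p = 0.00224). Cell-surface proteoglycans were higher for 5 of 11 in males and 6 of 11 in females with 0 lower, led by *Sdc1* (2.77 ± 0.23 and 2.93 ± 0.25) and *Sdc4* (1.19 ± 0.22 and 1.64 ± 0.20).

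Proteases that cut versican or trim the small leucine-rich proteins split in males, with 3 of 8 higher and 2 lower (*Adamts9*, -0.71, and *Tll2*, -1.29), and had 5 of 8 higher and 0 lower in females. *Adamts15* rose by 2.23 ± 0.19 and 2.41 ± 0.17 and *Bmp1*, which removes the propeptides of biglycan and osteoglycin, by 2.12 ± 0.14 and 1.78 ± 0.16. Of 11 fibril collagens, ligands and receptors, 7 in males and 9 in females were higher and 0 lower. Among the collagens that decorin and lumican bind, *Col3a1* rose by 3.72 ± 0.28 and 4.08 ± 0.20 and *Col1a1* by 2.99 ± 0.29 and 3.25 ± 0.25, beside 1.57 ± 0.14 and 1.59 ± 0.13 for *Dcn*, a difference between genes that was not tested. *Tlr2* and *Tlr4*, receptors for soluble biglycan, were called higher in both sexes, at 1.21 and 2.08 and at 0.56 and 1.08. *Tgfb1*, *Tgfb2* and *Tgfb3*, ligands that decorin binds, stood at 0.30 ± 0.17, 0.50 ± 0.25 and -0.10 ± 0.23 in males, none called, and at 0.28 ± 0.11, 0.69 ± 0.18 and -0.16 ± 0.17 in females, the first and second called (limma adjusted p = 0.0467 and 0.00448).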

How the data were processed

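PolyA RNA of mouse hearts was sequenced with a directional kit, and per the labels and the study's methods reads were aligned to GRCm39 with STAR, counted with featureCounts and scaled with edgeR by the authors. The deposited signal values are CPM with a scaling factor for each library, in 1 table per sex, with column totals from 817395 to 1193422 in males and 848402 to 1196278 in females. Whole reads were recovered from them, 100% within 0.001 of a whole number. Groups came from the labels, every column used was mapped to a sample (0 were not), and 2 male libraries with contradictory labels entered no group. Replicates are separate libraries, and p-values measure the spread between them. The lowest chi-square per gene over 54 replicate pairs was 6.67, so none was a repeat.

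Genes at 0.5 or more in at least 3 libraries were tested (16931 in males, 16956 in females) with limma 3.58.1 in R 4.3.3 on log2(CPM + 0.5), with a mean-variance trend, 1 fit per sex, no covariate, and Benjamini-Hochberg adjustment. No test was made between tables. Scripts were tested on simulated data. Alternatives were pseudocounts of 0.1 and 2, no filter or 1 CPM in 4 libraries, median-of-ratios scaling and plain scaling to the column total. Others were edgeR 4.0.16 and DESeq2 1.42.0 on the recovered reads and fits on the 2 compared groups. The rest were a replicate block, a log2 fold of at least 1, and leaving out each replicate number. Leaving out single libraries that stood apart was added after the data were seen. The design assumed CPM with equal totals, and the test was kept.

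The members and gene lists were chosen with earlier results of these data known. All members were named, with up to 3 genes per list that were called the same way in both sexes at 6 weeks with the largest smaller change, *Tgfb1* to *Tgfb3*, *Il11* and the genes most like each member. *Tlr2*, *Tlr4*, genes called lower, marker genes, *Cenpp*, *Gm15851*, *Comp*, *Myl7* and *Myl4* were named after their values were seen. The second most alike gene of *Bgn* and of *Prelp* is not reported here.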

Additional observations from a re-analysis of the deposited data

Results flagged for a closer look

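In 6 of 80 groups of 4 libraries a sample stood far from the others of its group (a gap to the nearest one above Dixon's 95% critical value), and chance gives about 1 in 20. These were *Lum* in male uninduced replicate 1 (77.1 CPM), *Omd* in male 1-week replicate 1 (1.34), *Fmod* in female 1-week replicate 2 (26), *Aspn* in the same library (39.8), *Prelp* in female control replicate 3 (54.0) and *Vcan* in female control replicate 2 (9.44, the lowest of its group).

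*Fmod* in uninduced hearts was higher than in control in females (0.99 on the log2 scale) and lower in males (-0.55), neither called, and the difference between the sexes was not tested.

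Of the 2 male libraries with contradictory labels, the one named as control in its column held *Il11* at 0.597 CPM, *Dcn* at 301, *Fmod* at 4.3 and *Ogn* at 88.8, each above the range of the male controls. The one named as 6 weeks in its column held *Il11* at 511, *Dcn* at 885, *Lum* at 148, *Bgn* at 1002, *Prelp* at 134 and *Vcan* at 59.4, again above that range. Neither was assigned to a group from these values.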

How the results depend on the processing

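The differences of *Dcn*, *Bgn*, *Lum*, *Prelp* and *Vcan* from control at 1, 3 and 6 weeks kept their direction and call under every alternative run in both sexes, except that male *Prelp* at 1 week (0.90) did not reach a log2 fold of at least 1. The number of members called moved by over 1.5 times in 7 cases: with a log2 fold of at least 1 it was 4 in place of 7 (male, 1 week) and 6 in place of 10 (female, 6 weeks); for uninduced against control it was 2 with plain scaling and 2 with DESeq2 in place of 0 in males, 0 to 2 leaving out a replicate number, and 1 with DESeq2 in females; and for male 6 against 1 week it was 1 with DESeq2. Leaving out a replicate number gave 7 to 8, 5 to 6 and 5 to 6 members at 1, 3 and 6 weeks against control in males and 5, 6 to 7 and 7 to 9 in females. Other counts stayed within 1.5 times.

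Calls of falling or scarce members were lost or gained more widely. Gained were *Fmod* in females at 1 week with edgeR (3.0), DESeq2 (3.02), a pseudocount of 0.1 (1.94) and plain scaling (1.94) and at 3 weeks without replicate 2 (1.22) or with only the 2 groups (0.90), male *Fmod* with plain scaling at 1, 3 and 6 weeks (0.94, 0.99 and 1.11) and at 3 weeks without replicate 3 (1.40), *Aspn* in females with plain scaling at 1 and 3 weeks (0.68 and 0.66), and male *Omd* at 1 week without replicate 1 (-0.95). With only the 2 compared groups, *Ogn* in females at 1 and 3 weeks (-0.35 and -0.43) and *Hspg2* in females at 1 week (-0.31) were gained too. *Aspn* (female, 6 weeks, 0.38 to 0.56) and *Omd* (female, 1 week, -0.59 to -0.39) were lost leaving out any replicate number, *Omd* at 3 weeks without replicate 2 (-0.57), *Ogn* in males at 3 and 6 weeks without replicate 1 or 3 and in females at 6 weeks without 1, 2 or 4, and *Hspg2* in females at 3 weeks without 2, 3 or 4 and at 6 weeks without 2 or 4. The call of *Hspg2* in females at 3 weeks was also lost with edgeR (-0.47, adjusted p = 0.0527). Male *Aspn*, never called, turned sign at 1 week with plain scaling (0.33), edgeR (0.11), DESeq2 (0.09), without replicate 4 (0.60) and without that 1-week library alone (0.39), at 3 weeks without replicate 3 (-0.01), and at 6 weeks with plain scaling (0.14), edgeR (0.0), without replicate 1 (0.10) or 4 (0.29) and without 6-week replicate 4 alone (0.08). Other uncalled differences that turned were *Hspg2* in females with plain scaling at 1 week (0.03) and uninduced (0.08, and 0.07 without replicate 3), *Aspn* in uninduced females (0.04 with plain scaling, 0.01 without replicate 3) and *Prelp* in uninduced males (-0.09 without replicate 1). Leaving out each replicate number in turn, these ran from -0.31 to 0.60, -0.01 to 0.26 and -0.51 to 0.29 for male *Aspn* at 1, 3 and 6 weeks, from -0.24 to 0.01 for *Aspn* and -0.20 to 0.07 for *Hspg2* in uninduced females, and from -0.09 to 0.16 for *Prelp* in uninduced males. The cause was not tested. Over all members' differences, 1191 values kept direction and call, 29 gained a call, 35 lost it and 17 turned.

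Equal replicate numbers did not pair the libraries (mean correlation of deviations 0.013 over 33 male pairs and 0.025 over 40 female pairs). With a replicate block male *Fmod* at 6 weeks was called (1.02, adjusted p = 0.0465), and no other difference of a member from control changed its call. At these depths *Omd*, and *Fmod* in males, rest on few reads per library.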
